A study of Drosophila melanogaster with 5 samples.

Results

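Glutathione S-transferases (GSTs) join the tripeptide glutathione to reactive and foreign compounds, which makes them easier to export. Insects carry the Delta and Epsilon classes, which grew by gene duplication and are known for metabolising insecticides, plant toxins and products of lipid peroxidation. The Omega, Sigma, Theta and Zeta classes are shared with vertebrates and include enzymes of reduction and of tyrosine breakdown. In flies many GST genes respond to the transcription factor CncC, which the sensor protein Keap1 holds back until electrophiles appear.

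The 34 genes described here were chosen by symbol, as those whose probe set has a single gene symbol made of Gst, one of the class letters D, E, O, S, T or Z, and a number. They are 34 of the 10844 genes that the array's annotation names, with 36 of 12443 probe sets. There are 11 Delta, 14 Epsilon, 3 Omega, 1 Sigma, 3 Theta and 2 Zeta genes. The family itself was selected on its difference between the 2 sample groups, which was known beforehand, so those differences are given as a description and no p-value is attached to a member, a class or the family.

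The RNA came from Drosophila melanogaster cells sorted for green fluorescent protein. The larval brain group is 1 array of cells from dissociated larval brain. The embryo culture group is 4 arrays, a to d, of cells from embryo culture. All 5 carry the same transgenes, Cha-Gal4 with 7.4 kb of Cha regulatory DNA and UAS-GFP, so a cell counts as cholinergic through the activity of that driver fragment. The labels name no strain, larval age, time in culture or pooling of animals. They also do not say that arrays a to d are separate cultures, so the spread among them may be technical.

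Values are linear probe set intensities on the scale of the authors, whose trimmed mean lay between 500.06 and 500.08 on all 5 arrays. Differences are larval brain minus embryo culture on log2(intensity + 47.4), with their standard error (SE), from a limma fit over 13966 probe sets. "Past the threshold" means a Benjamini-Hochberg adjusted p under 0.05 over all of them. Larval brain has no replicate, so each SE rests on the scatter of the 4 cultured samples and takes larval brain to scatter equally. The fit also draws the scatter of each gene towards that of probe sets of similar intensity. An SE is thus not the gene's own replicate scatter alone: GstD8 had a log2 SD of 0.07 in embryo culture but an SE of 0.42. Background was taken as the highest of 23 non-fly control probe sets, which was 82.6 on the larval brain array and lay between 119 and 271 on the embryo culture arrays. The sorted cells carried ChAT, the acetylcholine-making enzyme that marks cholinergic neurons, at 2255 in larval brain and 2450.5 ± 680 in embryo culture (SD, n = 4). The neuronal RNA-binding protein gene elav stood at 3047 in larval brain, against 104, 61.4, 713 and 667 in embryo culture (arrays a to d). Arrays a and b lay under background for it. Its difference, 3.33 ± 1.05, was the largest of 7 measured neuron markers. Larval brain lay above every embryo culture array for 5 of the 7 (26.2% of all genes). It lay inside their range for Appl (0.32 ± 0.57) and below it for Syn (-1.23 ± 0.75). In bulk RNA of this kind, fewer cells of a type and less RNA per cell cannot be told apart.

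Most of the family stood lower in larval brain than in embryo culture, and the large differences belonged to Delta and Epsilon genes. Of the 34 members, 10 were past the threshold and lower in larval brain, against 2.81% of all 10844 genes, and 0 were past it and higher, against 0.821%. The larval brain value lay below every embryo culture array for 25 members, against 29.6% of all genes, and above every one for 2, against 26.2%. Since the family was taken up for this difference, nothing is read from these counts against their backgrounds. By class, 6 of 14 Epsilon genes and 4 of 11 Delta genes were past the threshold, and 0 of the 9 genes of the other classes. The median difference over the family was -1.25, against -0.07 over all genes. Without embryo culture array d 6 members were past the threshold, and 8 without a, b or c.

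**Figure D1:**
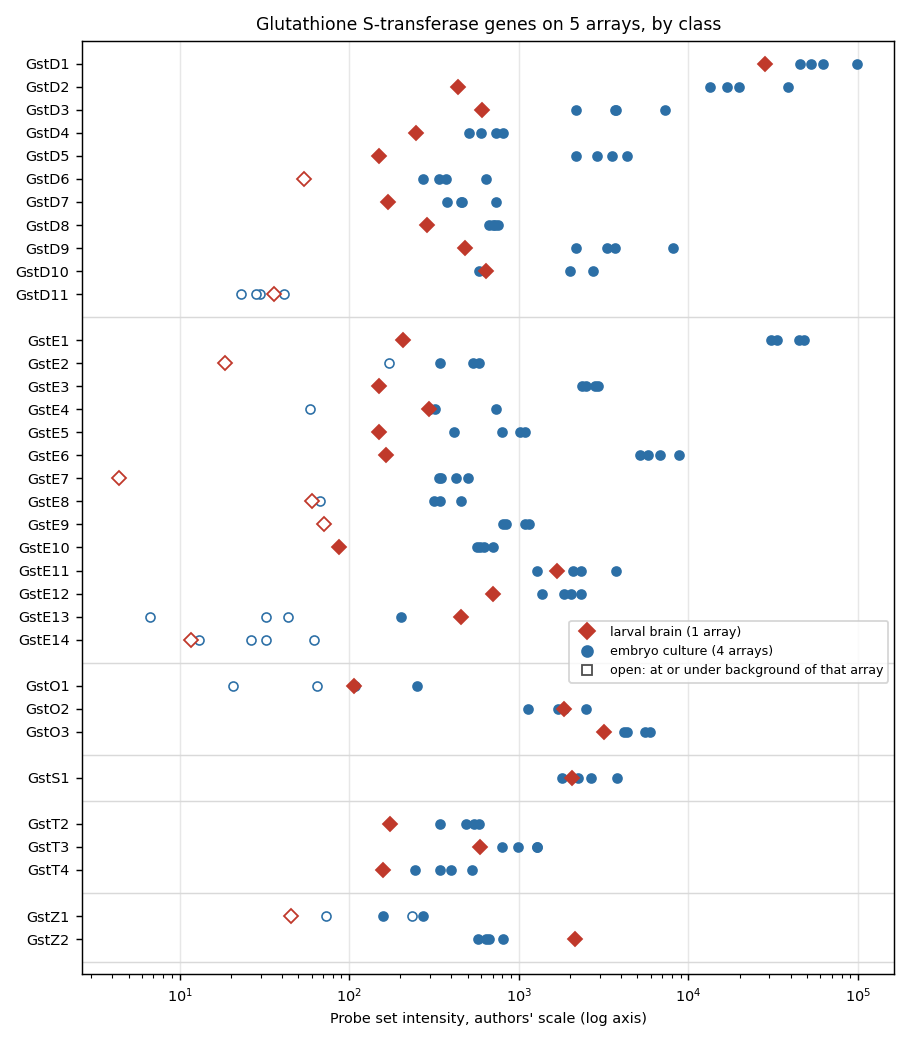
Probe set intensity (log axis) of each of the 34 genes, by class, with the larval brain array as a diamond and the 4 embryo culture arrays as circles, open where the value is at or under the background of its array. GstE1 and GstD2 show wide gaps between the groups, whereas GstO2, GstS1 and GstE4 have the larval brain value among the embryo culture values.

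The Epsilon class held the widest gap of the family. GstE1, an enzyme known to conjugate the lipid peroxidation product 4-hydroxynonenal, had an intensity of 206 in larval brain, against 30831, 33185, 48078 and 45094 in embryo culture. The larval brain value was above background, so this is a measured level and not a bound. The difference was -7.25 ± 0.50, and against single embryo culture arrays it ran only from -7.57 to -6.93, a spread that is small beside the gap.

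GstE6 and GstE3 followed within the class. GstE6 stood at 164 in larval brain, against 6756, 5182, 8802 and 5761 in embryo culture, a difference of -4.95 ± 0.41. GstE3 stood at 150 in larval brain and at 2493, 2348, 2938 and 2817 in embryo culture, a difference of -3.77 ± 0.36. For both genes the 4 embryo culture arrays lay close together and all far above the larval brain array.

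GstE9, GstE7 and GstE10 also passed the threshold, at lower intensities. GstE9 was at background in larval brain (71.2), against 1087, 807, 1149 and 835 in embryo culture, which makes it at least 11.6-fold lower. GstE7 was likewise at background in larval brain (4.4), against 345, 427, 338 and 502 in embryo culture, at least 4.82-fold lower. GstE10 stood at 87.6 in larval brain, just above background there, and at 619, 589, 564 and 699.8 in embryo culture.

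Their fitted differences were -3.08 ± 0.45 for GstE9, -3.10 ± 0.60 for GstE7 and -2.30 ± 0.47 for GstE10. In all 3 genes the larval brain array lay below the 4 embryo culture arrays. GstE7 and GstE10 were no longer past the threshold without any 1 of the 4 embryo culture arrays, although their differences hardly moved (-3.18 to -3.0 and -2.34 to -2.24). With a pseudocount at the 40th percentile (144) the difference of GstE7 was -1.87 and that of GstE10 -1.71, and both missed the threshold too.

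The other 8 Epsilon genes were not past the threshold and did not move as a block. GstE2, GstE5 and GstE8 had differences of -2.67 ± 0.73, -2.07 ± 0.57 and -1.48 ± 0.86, with larval brain below every embryo culture array. GstE2 and GstE8 were at background in larval brain, and each was above background on 3 of the 4 embryo culture arrays, so no bound on their fold is given. GstE5 passed the threshold without embryo culture array a, with a difference of -2.35.

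GstE4 was the most scattered of the class, at 295 in larval brain and 321, 298, 59.1 and 734 in embryo culture. The embryo culture arrays spanned the larval brain value, the difference was 0.09 ± 0.94, and its sign turned with the embryo culture array left out (-0.44 to 0.52). GstE12 had a difference of -1.35 ± 0.41 and GstE11 one of -0.37 ± 0.53.

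GstE13 had the only positive difference above 1 in the class. It stood at 457 in larval brain, against 32.3, 6.7, 201 and 43.3 in embryo culture, where only array c was above background. Its difference was 2.35 ± 0.82, which did not pass the threshold. GstE14, known as Nobo and required in the prothoracic gland for ecdysteroid synthesis, was at or under background on all 5 arrays, so it has no fold change.

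The Delta genes spanned a wide range of differences, and 4 of the 11 were past the threshold. GstD2 stood at 435 in larval brain, against 13437, 16824, 19809 and 38638 in embryo culture. Its difference was -5.40 ± 0.59, and each embryo culture array lay far above the larval brain array. GstD5 stood at 149.9 in larval brain and at 2166, 3559, 4352 and 2876 in embryo culture, a difference of -4.01 ± 0.44.

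GstD9 and GstD3 were past the threshold with more scatter between embryo culture arrays. GstD9 stood at 481 in larval brain, against 3305, 2179, 8072 and 3709 in embryo culture, a difference of -2.88 ± 0.61. GstD3 stood at 606 in larval brain, against 3745, 2173, 7270.4 and 3675 in embryo culture, a difference of -2.57 ± 0.57. Array c was highest and array b lowest for both genes, and no embryo culture array reached down to the larval brain value. GstD3 missed the threshold without array a (-2.59) or d (-2.60), and GstD9 without d (-2.89).

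GstD1 is the best known Delta gene, an enzyme with activity on the insecticide DDT and a standard reporter of CncC activity. It was named here after its values were seen. It stood at 28248 in larval brain, against 45368, 52674, 62255 and 99144 in embryo culture, with a difference of -1.13 ± 0.75 that did not pass the threshold. Measured against single embryo culture arrays, its difference ran from -1.81 to -0.68, while that of GstD2 ran from -6.32 to -4.80. Both ranges are measured from the same larval brain array, and the difference between both genes was not tested.

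GstD4, GstD7 and GstD8 resembled GstD1 in size, with differences of -1.24 ± 0.47, -1.32 ± 0.54 and -1.18 ± 0.42. All 3 had larval brain below every embryo culture array, and none passed the threshold. GstD8 had the most even embryo culture values of the Delta class above background, 722, 704, 755 and 663. GstD6 was at background in larval brain (54.2), at least 4.66-fold lower than in embryo culture, with a difference of -2.10 ± 0.63.

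The last Delta genes did not separate the groups. GstD10 stood at 641 in larval brain and at 634, 581, 2721 and 2013 in embryo culture, so arrays a and b matched the larval brain value and arrays c and d lay above it. GstD11 was under background on every array, at 35.8 in larval brain and 29.9, 23.0, 28.2 and 41.4 in embryo culture, and has no fold change.

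The classes other than Delta and Epsilon had smaller differences, from -1.25 to 1.62, and no gene past the threshold. Among the Omega genes, whose enzymes can reduce dehydroascorbate, GstO3 stood at 3179 in larval brain and at 4318, 5544, 5926 and 4173 in embryo culture. Larval brain lay below all 4, with a difference of -0.63 ± 0.39. GstO2 stood at 1839.5 in larval brain, against 2486, 1702, 1839 and 1135 in embryo culture, so the groups overlapped.

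Its other 2 probe sets gave differences of -0.26 ± 0.61 and -0.51 ± 0.64, against 0.09 ± 0.45 for the brightest, and larval brain lay inside the embryo culture range for all 3. GstO1 stood at 107 in larval brain and at 20.6, 108, 250 and 64.2 in embryo culture, where only array c was above background. The Sigma gene GstS1, whose protein is abundant in fly muscle, stood at 2048 in larval brain and at 2245, 2657, 3803 and 1807 in embryo culture. Its difference was -0.30 ± 0.45, within the spread between arrays.

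The 3 Theta genes each lay below all 4 embryo culture arrays in larval brain. GstT2 stood at 174 in larval brain and at 581, 486, 542 and 343 in embryo culture (-1.25 ± 0.52). GstT3 stood at 588 in larval brain and at 987, 1288, 794 and 1273 in embryo culture (-0.81 ± 0.43). GstT4 stood at 159 in larval brain and at 243, 344, 532 and 399 in embryo culture (-1.0 ± 0.59). None of these differences passed the threshold.

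The 2 Zeta genes, relatives of the maleylacetoacetate isomerase of tyrosine breakdown, had opposite signs. GstZ2 stood at 2152 in larval brain, against 575, 670.3, 802 and 642 in embryo culture, a difference of 1.62 ± 0.40. Larval brain was above every embryo culture array, but the difference did not pass the threshold over all 4 arrays; it did with a and b alone and with c and d alone. GstZ1 was at background in larval brain (45.3), against 159, 273, 72.8 and 234 in embryo culture, where arrays c and d were also at background (-1.23 ± 0.74), so no bound on the fold is given. No test of the difference between both genes was run.

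**Figure D2:**
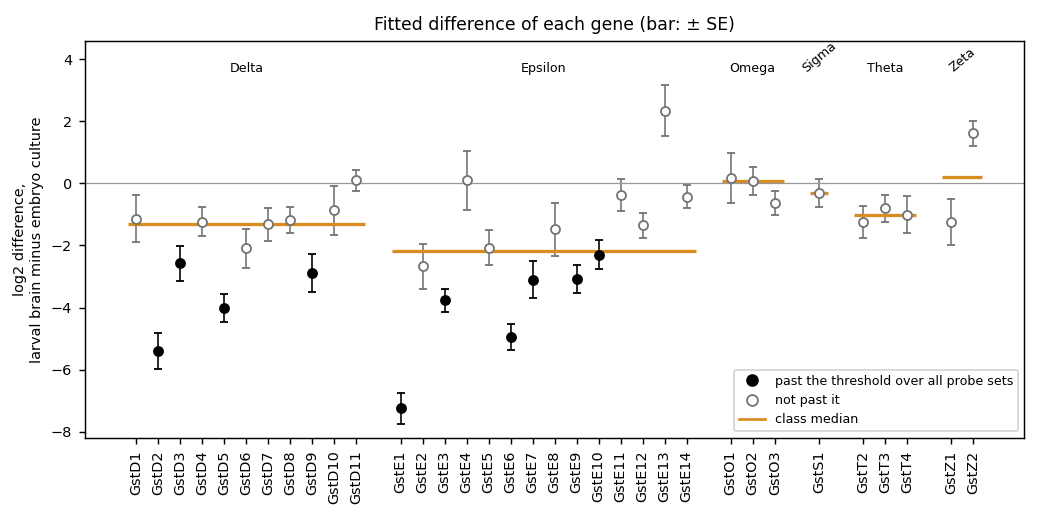
Fitted log2 difference, larval brain minus embryo culture, of each member by class, with bars of ± 1 SE and a line at each class median. The 10 filled points, all Delta or Epsilon genes, are those past the threshold, and the class medians are -1.32 (Delta), -2.18 (Epsilon), 0.09 (Omega), -0.30 (Sigma), -1.0 (Theta) and 0.20 (Zeta).

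Set side by side, the Epsilon median was -2.18 and the Delta median -1.32. With genes at background in larval brain put at a bound, and GstD11 and GstE14 left out, they were -2.15 and -1.77. That Epsilon value is the one of GstE2, which was above background on only 3 embryo culture arrays, so it is not a firm bound. Against single embryo culture arrays the Epsilon median ran from -2.49 to -1.89 and the Delta median from -2.01 to -1.53, so the ranges of both classes overlapped. With the log2 ratio of 3′ to middle signal, a measure of RNA quality, as a covariate, the medians were -2.79 for Epsilon and -2.70 for Delta. Larval brain lay outside the embryo culture range of that ratio, so both values are extrapolated. The median over the 9 genes of the other classes was -0.63, and ran from -0.88 to -0.39 against single arrays. The Delta and Epsilon ranges lay wholly below that range, although the Delta median of -1.32 lay outside the Delta range. Theta genes alone ran from -1.41 to -0.70, a range above that of Delta but one that holds -1.32.

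The chromosomal order of the genes is a further description, drawn from the same differences the family was selected on, and nothing is inferred from it. By the gene order of a RefSeq table on Drosophila Release 6, 10 of the 14 Epsilon genes, GstE1 to GstE10, lie in 1 run with no other protein-coding gene between them, and GstE11 to GstE14 lie elsewhere. The 6 Epsilon genes past the threshold were all in the run, which had a median difference of -2.88, and 0 of the 4 genes outside it were past the threshold, with a median of -0.40. The genes past the threshold were not all adjacent. GstE4, at 0.09, and GstE5, at -2.07, did not pass it and lie between GstE3 and GstE6, at -3.77 and -4.95, which did.

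The 3 measured neighbours on each side of the Epsilon run did not pass the threshold. The same holds for most genes, as 2.81% of all genes were past it and lower and 0.821% higher. On the GstE10 side, the differences were -2.06 ± 1.26 for Idgf5, -1.11 ± 0.97 for BomS6 and -1.05 ± 0.40 for BomS5. On the GstE9 side they were -0.21 ± 0.68 for imd, -0.72 ± 0.40 for Dp1 and 0.20 ± 0.83 for CG5174. These neighbours were looked up after the members' values were known.

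All 11 Delta genes lie in 1 run, in the order GstD10, GstD9, GstD1 to GstD8 and GstD11, with 1 unmeasured gene before the last. GstD9, GstD2, GstD3 and GstD5 were past the threshold and lie among others that were not. At the ends, GstD10 had a difference of -0.86 ± 0.79, and GstD11 was under background throughout. The 3 flanking genes with a value, CG4115, Tim17a1 and Sol1, had differences from -1.04 to 2.17, and 0 were past the threshold. Over all genes 2.81% were past it and lower and 0.821% higher. The 3 Omega genes also share 1 run, with sepia (se), itself an Omega-type enzyme of eye pigment synthesis, inside it. Sepia was under background on every array and has no fold change. GstZ1 and GstZ2 are direct neighbours.

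**Figure D3:**
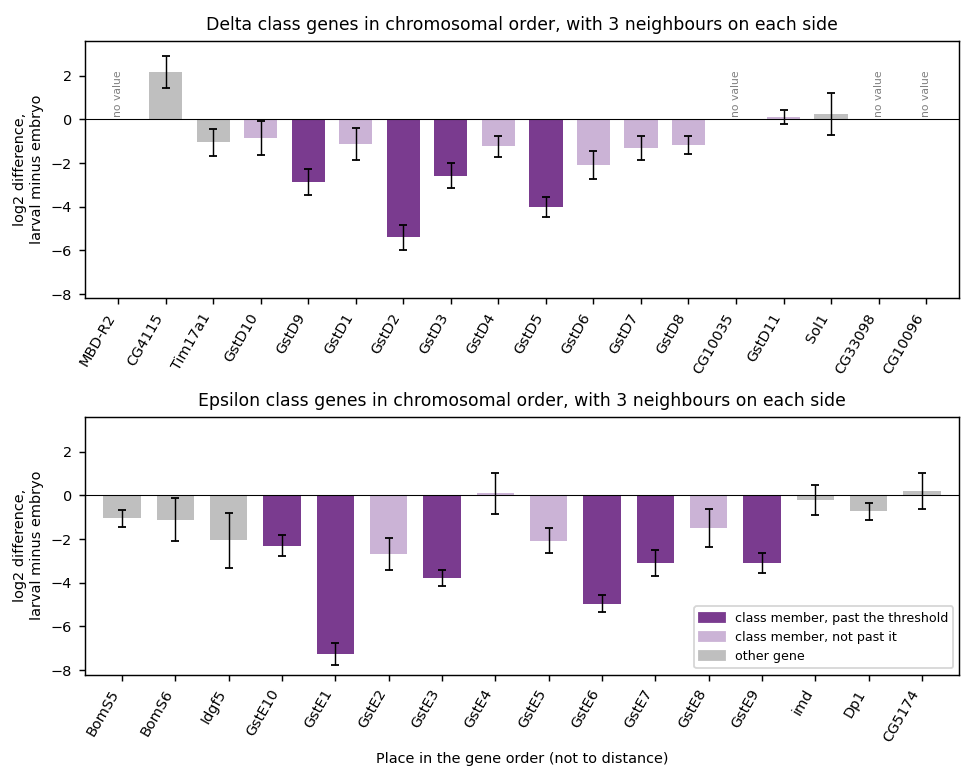
Log2 difference, larval brain minus embryo culture (bars of ± SE), of the Delta genes (top) and the run of Epsilon genes (bottom) in chromosomal order, with 3 protein-coding neighbours on each side. The tallest bars, GstD2 (-5.40) and GstE1 (-7.25), stand next to GstD1 (-1.13) and GstE2 (-2.67), and no flanking gene is past the threshold.

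Because genes in such runs arose by duplication and resemble each other, a probe set can also bind transcripts of a neighbour. The probe sequences were not used here, so this part of any value was not tested.

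The 4 embryo culture arrays differed among themselves for a few members. The median SD of the log2 values over the 4 embryo culture arrays was 0.42 in the family and 0.47 over all genes. GstE4 (1.19), GstD10 (1.09), GstE8 (0.95) and GstE13 (0.94) had the highest SDs. Among members above background on all 4 arrays, GstD8 (0.07), GstE10 (0.13) and GstE3 (0.15) had the lowest. Array c gave the highest of the 4 values for 19 of the 34 members, 8 Epsilon and 6 Delta genes among them, whereas it was highest for 20.6% of all genes. GstD3, GstD9 and GstD10 were among the 6 Delta genes highest on array c, and GstD1, GstD2 and GstD11 were highest on array d.

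Genes that supply and use glutathione were set beside the family, and no test of a list against the family was run. Among 8 measured genes of glutathione synthesis and turnover, 1 was past the threshold and lower in larval brain (2.81% of all genes were) and 0 were higher (0.821% were). In 5 of the 8 larval brain lay below every embryo culture array (29.6% of all genes), and the median was -0.55. The 1 was MRP, a transporter that exports glutathione conjugates, at 509 in larval brain, against 4299, 4446, 5796 and 3040 in embryo culture (-2.96 ± 0.42). The catalytic and modifier subunits of the enzyme that begins glutathione synthesis, Gclc and Gclm, had differences of 0.98 ± 0.76 and -0.33 ± 0.39, which did not pass the threshold. Gclc was above background on only 1 of the 4 embryo culture arrays, and both genes were named after their values were seen.

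A further 6 measured glutathione transferase genes lay outside the choice by symbol. Of them, 0 passed the threshold in either direction (2.81% of all genes were lower, 0.821% higher). Sepia, of Omega type, is among them and was under background on every array, so it has no fold change. Of these 6 genes, 4 had a positive fitted difference, sepia among them, and 2 a negative one. The median was 0.63, and 0.86 with sepia left out. The translation factor subunit eEF1gamma, which carries a GST domain, stood at 16010.1 in larval brain and 7693 ± 1839 in embryo culture, above every array (1.09 ± 0.47). The microsomal transferase Mgstl stood at 3062 in larval brain and 3733 ± 1013 in embryo culture, within their range. Clic (1.10 ± 0.75) and Gdap1 (-1.48 ± 0.50) had opposite signs.

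The 16 antioxidant enzyme genes had a median of -0.37. Of them, 1 was past the threshold and lower (2.81% of all genes were) and 0 were higher (0.821% were). It was Irc, a secreted immune-regulated catalase of the gut, at background in larval brain (48.2) and at 1395, 1144, 1186 and 925 in embryo culture, at least 13.9-fold lower (-3.65 ± 0.43). Of 8 genes of the CncC and Keap1 pathway, 0 were past the threshold in either direction, with a median of -0.30. Lists this short cannot tell such counts from the shares of all genes.

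The core genes cnc, Keap1 and maf-S of that pathway were looked at after their values were seen. The gene that encodes CncC, cnc, stood at 261 in larval brain and 338 ± 77.4 in embryo culture (-0.30 ± 0.55). This is the brightest of its 4 probe sets, and which cnc transcripts it reads was not tested. Its inhibitor Keap1 stood at 265 in larval brain, against 1096, 908, 744 and 713 in embryo culture (-1.53 ± 0.44). The small Maf partner of CncC, maf-S, stood at 2168 in larval brain, against 707, 582, 936 and 601 in embryo culture (1.58 ± 0.42). Larval brain lay outside the embryo culture range for all 3, and none passed the threshold over all 4 embryo culture arrays. The 4 brightest genes of the list, Fer2LCH, Fer1HCH, ref(2)P and Men, had differences from -0.78 to 0.39.

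Other detoxification families were set beside the GSTs. Of 81 cytochrome P450 genes, which oxidise foreign compounds before conjugation, 14 were past the threshold and lower in larval brain (2.81% of all genes were) and 0 were higher (0.821% were), with a median of -1.03. Cyp6a20, Cyp9b2, Cyp6a14 and Cyp28d1 were at background in larval brain and at least 39.0-fold, 45.5-fold, 27.0-fold and 11.5-fold lower. Of 33 UDP-glycosyltransferase genes, 1 (Ugt302C1, -2.14 ± 0.43) was past the threshold and lower and 0 were higher, with a median of -0.71. That count was 0 without embryo culture array b or c and 2 without d.

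**Figure D4:**
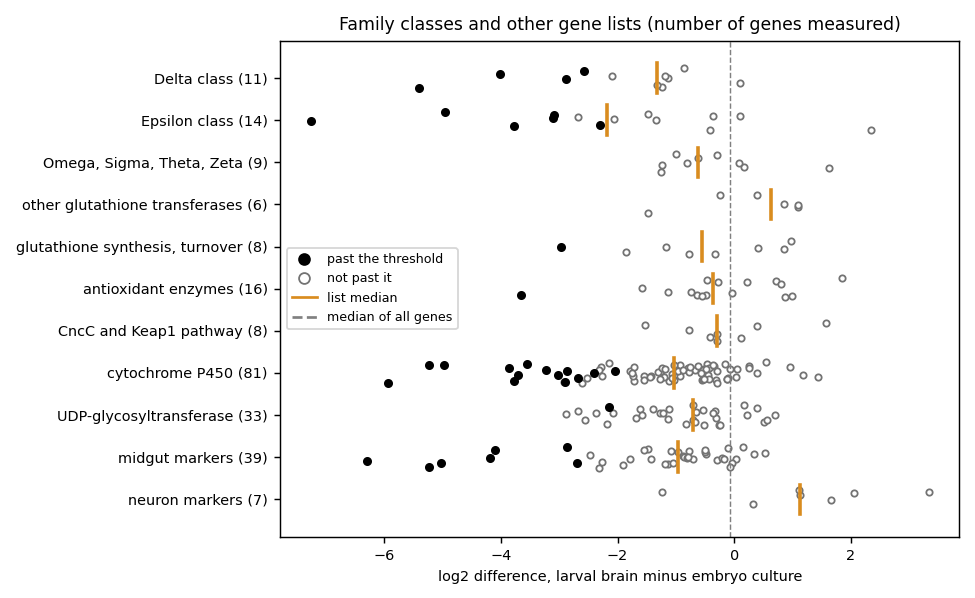
Log2 differences, larval brain minus embryo culture, of the genes of each GST class and of other lists, with a point per gene, a bar at each list's median and a dashed line at the median of all genes (-0.07). Points past the threshold lie at negative differences in every list that has any, and GstE1 lies farthest to the left of all points shown.

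Some markers of the larval and adult midgut were lower in larval brain too. Of 39 measured midgut markers, 7 were past the threshold and lower (2.81% of all genes were) and 0 were higher. Larval brain lay below every embryo culture array for 27 (29.6% of all genes) and inside their range for 12, with a median of -0.97. Their summed intensity was 10954 in larval brain and between 43949 and 79326 on the embryo culture arrays. The enterocyte gene mex1 was at background in larval brain (30.1), against 2901 ± 569 in embryo culture, at least 34.6-fold lower. The smooth septate junction genes hoka, at least 56.1-fold lower, and Ssk, at 566 in larval brain and 11640.2 ± 4077 in embryo culture, behaved alike, as did the lysozyme gene LysX, at least 31.3-fold lower. Of the 39 markers, 18 were at background in larval brain and 5 on all 4 embryo culture arrays. Whether these genes, the junction genes among them, mark the midgut alone was not tested. The part of midgut cells in the GST differences was not tested.

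Markers of other tissues were set beside the family too. None of 10 fat body, 11 blood cell, 7 muscle, 5 Malpighian tubule and 13 epidermis and trachea markers was past the threshold either way. Over all genes 2.81% were past it and lower and 0.821% higher, so 0 in lists this short says little. Their medians were -0.27, -1.55, -1.23, -1.63 and -0.60. Those of blood cell, muscle and Malpighian tubule lay below the midgut median of -0.97, and those of fat body and epidermis above it. Summed blood cell markers stood at 1559 in larval brain and between 2167 and 11287 in embryo culture. The brightest, PPO2, stood at 4570, 5257, 365 and 672 on arrays a to d, against 405 in larval brain. PPO1 stood at 1607, 1805, 363 and 340, against 13.7 in larval brain. Arrays a and b lay above c and d for both genes, but not for lz (92.8, 213, 147 and 101). For the Malpighian tubule, a tissue that expresses detoxification genes, the summed markers stood at 819.5 in larval brain and between 1780.0 and 2662 in embryo culture. Most of that sum came from Vha55 (203 in larval brain, 1058 ± 312 in embryo culture) and Ndae1 (490 and 724 ± 104). Irk2 and Irk3 were at background in larval brain. Whether the sum follows tubule cells was not tested. Of 9 glial markers 1, the transporter gene Mdr65, was past the threshold and lower (-2.71 ± 0.59), which no longer held when any 1 of arrays a to d was left out. The neuron list had 7 genes and a median of 1.13, and the cholinergic list 3 genes and a median of 0.39, with 0 past the threshold in both. The parts of these tissues in the GST differences were not tested either.

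RNA quality differed between the groups and also among the embryo culture arrays. The log2 ratio of 3′ to middle signal, averaged over 3 control transcripts, was 1.15 on the larval brain array and 2.45, 2.35, 1.49 and 1.66 in embryo culture, arrays a to d. Arrays c and d thus lay nearer to larval brain than to arrays a and b. Larval brain lay outside the embryo culture range, so values fitted with this index as a covariate are extrapolated. With this index as a covariate, 10 members were past the threshold, 8 of them among the 10 named above. GstE7 and GstE10 were lost, with differences of -3.16 and -2.32, and GstE5 and GstD10 were gained.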

How the data were processed

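One table of 5 arrays was used. Per the values, the authors deposited 1 linear intensity per probe set and array, scaled to a common trimmed mean (2% trimmed at each end). The sources used here do not give the software, background correction or genome build. Of 14010 probe sets, 44 are controls. The platform annotation gives 12443 of the others 1 symbol, 327 several and 1196 none, and symbols were checked through Entrez identifiers in RefSeq (12394 matched, 0 changed).

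Intensities were tested as log2(intensity + 47.4), the 20th percentile, with limma 3.58.1 in R 4.3.3 (lmFit, eBayes with trend, 3 residual degrees of freedom), two-sided, adjusted over all 13966 probe sets. No dim probe set was left out, so all 34 genes were fitted. The brightest probe set stood for its gene. An "at least" fold sets the mean of the brighter group against the background, as means of log2 values. The precision is limited by the number of arrays (median SE 0.58). The fit was tested on simulated data. Tables and plots used Python 3.11.15, pandas 2.3.3 and matplotlib 3.10.9.

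The genes, lists and markers were chosen with earlier results of these data known. Named with all array values were the genes past the threshold, the extremes of each class and all Omega, Sigma, Theta and Zeta genes. Of other lists up to 4 genes were named, those past the threshold or else the brightest. Array values of GstD1, GstD8, GstD10 and GstE4 were added after seeing them. In all, 14 alternatives were run.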

Additional observations from a re-analysis of the deposited data

Results flagged for a closer look

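Among the 34 GST genes and the named genes of the other lists, 1 value stood apart from its group. Vha55, a proton pump gene of the Malpighian tubule list, stood at 203 in larval brain and at 1140, 1271, 1223 and 596 in embryo culture, and array d (596) lay far from the other 3. The gap was 0.854 of the whole range of the 4 log2 values, above the 95% critical value of Dixon's test. Chance gives such a gap in about 1 of 20 groups. No GST gene met this criterion.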

How the results depend on the processing

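The 10 genes past the threshold kept their negative sign in all 14 alternatives, and GstE1, GstE3, GstE6, GstE9, GstD2 and GstD5 stayed past it in each. The count of members lower in larval brain was 6 with a pseudocount at the 40th percentile (GstD3, GstD9, GstE7 and GstE10 lost) and ran from 6 to 8 when 1 embryo culture array was left out. It was 8 with quantile normalization, median centring or no variance trend, where GstD3 and GstD9 were lost. The lower count was 11 with embryo culture arrays a and b alone (GstE12 gained) and 13 with c and d alone (GstD10, GstE2 and GstE5 gained). The count of members higher in larval brain was 2 with embryo culture arrays a and b alone (GstE13 and GstZ2) and 1 with c and d alone (GstZ2). The Epsilon median was -1.67 with a pseudocount at the 40th percentile and -2.79 with the 3′ to middle index as a covariate. The Delta median was -1.71 with dim probe sets left out, which removes GstD11, and -1.53, -1.79 and -2.70 with a and b alone, with c and d alone and with the index. The cause of the other shifts was not tested. Median centring moved the median of all genes by 0.12 and leaving out dim probe sets by 0.11. For the other lists, alternatives added after seeing the data gave 10 to 22 cytochrome P450 genes, 0 to 7 UDP-glycosyltransferase genes, 0 or 1 gene of the CncC and Keap1 list and 6 to 12 midgut markers past the threshold and lower. With 5 arrays and a median SE of 0.58, small differences are beyond the precision of these data, and for 2 members under background on all arrays no difference was measured. No paired analysis was possible because the groups share only 1 replicate letter.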
